A study of Mus musculus with 9 samples.

Results

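Transcripts of matured mouse oocytes from a group given nicotinamide mononucleotide (NMN) were compared with those of an aged group that was not given it. The comparison rests on 6 of the 9 libraries of the series, 3 labelled NMN supplementation and 3 labelled aged, which were taken by their sample titles, and on all 22526 genes of the deposited table. The other 3 libraries came from a young group, entered the same fit and are given here as levels only. Every library was made from metaphase II oocytes of ICR mice, an outbred strain, and no genetic change is labelled in any group. The labels give neither the age of the mice in any group nor the dose, route or duration of NMN, and they do not state that the NMN mice were as old as the aged ones. How many oocytes and how many mice each library holds is not given either, so the tests measure the spread between libraries, which may be technical. Per its title, the series concerns NMN and the declining quality of oocytes in older mothers.

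NMN is a direct precursor of NAD, the coenzyme that carries electrons to the respiratory chain and that sirtuins and poly(ADP-ribose) polymerases consume. NAD is known to decline in ageing tissues, the ovary among them. A metaphase II oocyte hardly transcribes its nuclear genes, and it lives on messenger RNA stored while it grew. Its mRNA levels are set by storage, by lengthening and shortening of the poly(A) tail, and by decay. The libraries were primed from oligo(dT), so a transcript with a shorter tail can be captured less often, and a difference in level cannot be told apart from a difference in tail length.

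The libraries held 16.3 to 19.3 M reads (M, mega), as estimated from the steps between low values, and listed 15762 to 16940 genes above 0. Levels are given in FPKM (fragments scaled to transcript length and to library size), and 3 reads in a transcript of 2 kb would give 0.0779 to 0.0921 FPKM. All 17 oocyte markers were above 0 in 8 libraries and 16 of them in young replicate 1, with summed levels of 27049 to 41007 FPKM. Aged replicate 2 stood apart from the other 8 libraries. It lay at 57.1 on the first principal component, which held 41.2% of the variance, and the others lay between -28.5 and 22.6. The library nearest to it on this component was NMN replicate 1, at 22.6, whereas NMN replicates 2 and 3 lay at -12.27 and -5.185. NMN replicate 1 stayed in the fit without aged replicate 2, so that fit does not remove all of the spread along this component. Of 20 measured markers of cumulus and granulosa cells, the somatic cells that surround an oocyte, 19 were above 0 in aged replicate 2 and 7 to 11 in each other library. Their summed level was 29.1 FPKM in aged replicate 2, 9.27 and 6.73 FPKM in aged replicates 1 and 3, and 6.68 to 9.87 FPKM in the NMN libraries. Ptx3, a matrix protein of the expanded cumulus, was at 6.37 FPKM there and at 0 in the other 8. Fewer cells of a type and less RNA per cell cannot be told apart in such libraries. Results are therefore given with aged replicate 2 and without it, and the part of these cells in them was not tested.

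A gene was called when its p-value from limma, with Benjamini-Hochberg adjustment across the 9168 genes tested, was under 0.05. NMN libraries differed from aged ones in 20 genes (0.218%), of which 11 were higher (0.12%) and 9 lower (0.0982%) with NMN. The called changes spanned 1.17 to 4.52 in size on the log2(FPKM + 1) scale, on which the fold change of low transcripts is understated. Over all tested genes the median log2 change was -0.00115. Before adjustment, 1021 genes (11.1%) had a p under 0.05, with 493 higher (5.38%) and 528 lower (5.76%), where 458.4 would be met by chance. Groups did not overlap in 1430 genes (15.6%), 833 of them higher (9.09%) and 597 lower (6.51%). Such counts, here and below, use the deposited values, without the scaling between libraries that the fit used. Unscaled, 4822 genes had a higher and 4346 a lower mean log2 level with NMN, against 4566 and 4602 after scaling.

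The genes that rose with NMN encoded a vesicle SNARE, a membrane-bound antiviral protein, a zinc finger protein, a clock transcription factor, a ubiquitin-activating enzyme and a secreted pentraxin. Vamp3, which drives fusion of recycling endosomes and other vesicles with their target membrane, was at 7.13, 7.74 and 9.16 FPKM in the aged libraries and at 37.6, 30.9 and 35.6 FPKM with NMN. The groups were far apart, and the young libraries, at 24.8, 28.5 and 29.6 FPKM, lay between them. Vamp3 rose 4.33-fold, from 8.01 ± 1.04 to 34.7 ± 3.42 FPKM (SD, n = 3 each), with a log2 change of 1.96 ± 0.17 (SE) and a limma adjusted p of 0.00202. Bst2, or tetherin, holds budding enveloped viruses at the cell surface and is induced by interferon. It was at 3.26, 5.92 and 6.65 FPKM in aged libraries and at 35, 13.8 and 40.6 FPKM with NMN, so NMN replicate 2 was much lower than NMN replicates 1 and 3 and still above every aged library. Its log2 change was 2.18 ± 0.35 (SE), and the limma adjusted p was 0.043 with all libraries and 0.0591 without aged replicate 2. Zfp961, a zinc finger protein, was at 11.8, 10.6 and 14.7 FPKM in aged and at 36.0, 44.0 and 39.9 FPKM in NMN libraries. It rose 3.22-fold (limma adjusted p = 0.0154), toward the 41.6, 58.8 and 62.9 FPKM of the young group.

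Lower-abundance transcripts showed larger ratios. Arntl2, also called BMAL2, pairs with CLOCK on E-box DNA. It was at 0.142, 0.227 and 0.137 FPKM in aged libraries, low but above 0 in each, and at 3.27, 6.05 and 3.07 FPKM with NMN. The NMN libraries lay near the young ones, at 3.66, 4.60 and 4.52 FPKM, and the log2 change from aged was 2.07 ± 0.24 (SE; limma adjusted p = 0.00595). Uba6, the activating enzyme for ubiquitin and for the ubiquitin-like protein FAT10, was at 0.212, 0.241 and 0.294 FPKM in aged libraries against 2.66, 2.87 and 3.36 FPKM with NMN. No library of one group came near the other, and Uba6 rose 11.9-fold (log2 change 1.64 ± 0.18 SE, limma adjusted p = 0.00512). Nptx2, a pentraxin best known for clustering glutamate receptors at synapses, was at 0.910, 1.11 and 1.87 FPKM in aged and at 6.99, 6.88 and 5.94 FPKM in NMN libraries. It rose 5.08-fold (limma adjusted p = 0.0118), past the young level of 2.97 to 5.02 FPKM.

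Genes that fell with NMN encoded an RNA-binding protein, a substrate of protein kinase C, a nuclear import receptor, an actin-bundling protein and Dppa1. Rbm34, an RNA-binding motif protein, was at 4.91, 10.6 and 9.28 FPKM in aged libraries and at 0.490, 0.323 and 0.572 FPKM with NMN. The NMN values were close to those of the young libraries, 0.313, 0.440 and 0.314 FPKM. Rbm34 was 17.9 times lower with NMN, with a log2 change of -2.62 ± 0.23 (SE; limma adjusted p = 0.00202). Plek, or pleckstrin, a protein kinase C substrate known from platelets and leukocytes, was at 5.61, 6.68 and 5.42 FPKM in aged and at 0.861, 1.17 and 1.09 FPKM in NMN libraries. Here the young libraries, at 4.31, 4.32 and 4.61 FPKM, lay near the aged ones, and the NMN libraries were below both. Plek fell by 1.77 ± 0.17 (SE) on the log2 scale (limma adjusted p = 0.00237). Marker genes of macrophages and lymphoid cells, 6 of which were in the table, summed to 3.89 to 5.75 FPKM in aged and to 6.78 to 12.6 FPKM in NMN libraries, and their part in the Plek difference was not tested. Ptprc, the pan-leukocyte marker, was at 0 in all aged libraries and at most 0.033 FPKM with NMN, and C1qb, a complement subunit, made up most of the sum.

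Kpna2, an importin alpha that carries proteins with a classical nuclear localisation signal into the nucleus, was the most abundant of the 20 called genes. It was at 90.3, 76.4 and 83.3 FPKM in aged libraries and at 40.2, 34.9 and 36.2 FPKM with NMN, and the groups did not overlap. Its mean was 2.25 times lower with NMN (log2 change -1.17 ± 0.16 SE, limma adjusted p = 0.0154), close to the young level of 30.1 to 33.4 FPKM. Near-identical processed copies of Kpna2 could share its reads, so its level is uncertain to that extent. Pls3, or T-plastin, which bundles actin filaments, was at 3.30, 1.49 and 3.46 FPKM in aged and at 0.126, 0 and 0.257 FPKM in NMN libraries. Its log2 change was -1.70 ± 0.26 (SE; limma adjusted p = 0.0317). Dppa1, named as a developmental pluripotency associated gene, was at 20.9, 27.4 and 16.2 FPKM in aged libraries and at 9.97, 6.86 and 7.72 FPKM with NMN. Its log2 change was -1.30 ± 0.21 (SE), and its limma adjusted p was 0.0469 with all libraries and 0.0686 without aged replicate 2.

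**Figure D1:**
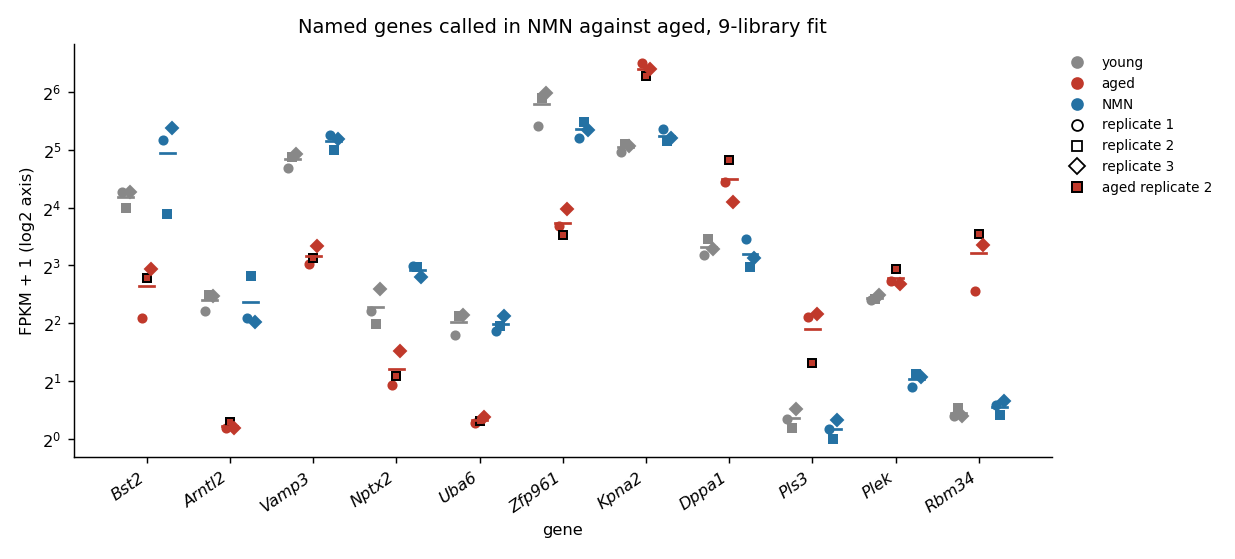
FPKM + 1 on a log2 axis in each of the 9 libraries for the 11 named genes called with all libraries, ordered by log2 change. Points are libraries, with symbol for replicate number and a black edge on aged replicate 2, and lines are group means; in each gene every NMN library lies on one side of every aged library, and Plek is the gene in which the young libraries stay by the aged ones.

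Since the libraries were primed at the poly(A) tail, the annotated 3′ ends of the called genes are shown, with the polyadenylation signal that directs cleavage and tailing in capitals. The first 3 lines hold genes that rose and the last 2 genes that fell. Each is written 5′ to 3′ in the sense of the mRNA, from the longest protein-coding transcript of GENCODE M21 (GRCm38, a later build than the mm9 of the deposited values, so no positions are given).
Vamp3: ggtgaccagAATAAAgttgtttat
Bst2: acctggaaaAATAAAgtaatttaa
Uba6: cagttctatAATAAAtgtgtttta
Plek: atcttttatAATAAActggcattt
Kpna2: tgtcctgtaAATAAAgattaaagt
The hexamer AATAAA was searched on the sense strand of the last 100 nt, and it was present in 5 of 6 called higher and 5 of 8 called lower genes that had such an end, and in 68.17% of the 7959 tested genes that had one. TTTTAT, a cytoplasmic polyadenylation element that takes part in tail lengthening during maturation, directly precedes the signal in Plek. It was in 1 of 6 called higher and 1 of 8 called lower genes, and in 16.76% of the tested genes. Both motifs were looked for after the called genes were known, and oocytes may use other ends than the annotated ones. Neither motif was in that window of Rbm34, Nptx2 or Dppa1.

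The remaining 9 of the 20 called genes were predicted or unnamed, several of them pseudogenes, and many have near-identical copies elsewhere, so their assigned reads are uncertain. E330012B07Rik, a long noncoding RNA, was at 0.223, 0 and 0.105 FPKM in aged and at 4.05, 4.58 and 7.60 FPKM in NMN libraries, with a young mean of 12.2 FPKM (limma adjusted p = 0.00375). Gm44609, a processed pseudogene, was listed at 0 in every aged library and at 44.3, 6.51 and 36.5 FPKM with NMN, with a young mean of 38.8 FPKM. Gm47871 and H2-T-ps, a pseudogene of the major histocompatibility complex, were listed at 0 in all aged and all young libraries and at 1.71 to 5.75 FPKM and 1.76 to 6.18 FPKM in NMN libraries. Gm11380 went the other way, at 5.98, 8.56 and 3.54 FPKM in aged libraries and listed at 0 in all NMN libraries. Of the 20 genes, 14 were protein coding (70%, against 86.9% of all tested genes), and 14 had a mean under 10 FPKM in the higher group. In 14 of the 20 the young mean was nearer to the NMN mean than to the aged one.

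Leaving out aged replicate 2 left 8953 genes to test and gave 26 calls (0.29%), with 12 higher (0.134%) and 14 lower (0.156%). Of the 20 genes called with all libraries, 13 were called again, 10 higher and 3 lower. Another 5, among them Rbm34 and Pls3, were no longer tested, because their level reached 1 FPKM in too few of the remaining libraries, and Bst2 and Dppa1 missed the threshold. When the genes of the first filter were kept, an alternative chosen after seeing the data, Rbm34 and Pls3 each had a limma adjusted p of 0.00396, and 18 of the 20 were called among 36 genes. Rbm34, Pls3, Gm11380, Gm13103 and Gm13089 reached 1 FPKM in aged libraries only, and Gm47871, H2-T-ps and Gm16380 in NMN libraries only. They passed the first filter only through the group where they were high, so keeping that filter is no separate support for their calls. All 15 of the 20 genes that were tested again kept their direction. Their groups did not overlap with all libraries, so leaving out an aged library could hardly reverse it, and this is no sign of stability. Across the transcriptome, 1727 of the 8953 genes changed sign when this library was left out.

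**Figure D2:**
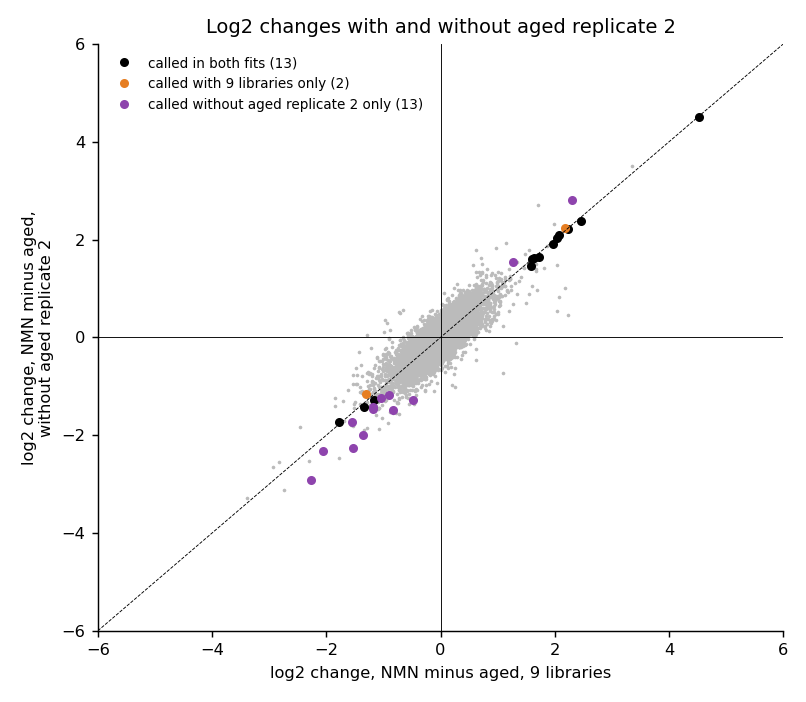
Log2 change of NMN minus aged for each of 8953 genes, from all 9 libraries (horizontal) and without aged replicate 2 (vertical); the dashed line marks equal changes. The 13 genes called in both fits lie near the line, whereas the 13 called only without aged replicate 2 lie farther from 0 on the vertical axis than on the horizontal one.

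Stability to single libraries differed among the called genes. Vamp3, Plek, Uba6 and E330012B07Rik were called whichever of the 9 libraries was left out, with a highest limma adjusted p of 0.0219 for Vamp3, 0.0244 for Plek and 0.0433 for Uba6. Arntl2 missed the threshold only without aged replicate 3 (limma adjusted p = 0.0589). Rbm34 was called in the 6 of the 9 fits that tested it, and none of these left out an aged library. It reached 1 FPKM in aged libraries only, so these fits say little about its stability. Kpna2 was called in 3 of the 9 fits, with a highest limma adjusted p of 0.101, Zfp961 in 4 (highest 0.0957) and Nptx2 in 6 (highest 0.07). Pls3 and Dppa1 were called in none of them, and Bst2 only without NMN replicate 2.

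Among the 13 genes called only without aged replicate 2, 10 were named, 1 higher and 9 lower with NMN. Rpusd4, a pseudouridine synthase of mitochondrial RNA, was at 27.7, 4.5 and 17.5 FPKM in the aged libraries and at 4.49, 4.06 and 3.54 FPKM with NMN. Trmt10c, a subunit of mitochondrial RNase P that also methylates mitochondrial tRNA, was at 29.7, 6.08 and 18.6 FPKM in aged and at 5.11, 5.04 and 6.10 FPKM in NMN libraries. For both, aged replicate 2 sat with the NMN libraries, and aged replicates 1 and 3 were several times higher. With all libraries the log2 change of Rpusd4 was -1.54 (limma adjusted p = 0.292), and without aged replicate 2 it was -2.26 ± 0.23 (SE; limma adjusted p = 0.00653). Trmt10c had a limma adjusted p of 0.299 with all libraries and 0.012 without aged replicate 2. Speer4f2 was at 3.65 FPKM in aged replicate 2, below every NMN library, and at 22.7 and 19.6 FPKM in aged replicates 1 and 3. Zfp984 was at 4.16 FPKM in aged replicate 2, above every NMN library, and at 20.3 and 14.7 FPKM in aged replicates 1 and 3. Both belong to families of near-identical genes, so their assigned reads are uncertain.

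In 4 other named genes of this set, aged replicate 2 lay between the remaining aged libraries and the NMN libraries, or near the former. Slc25a17, the peroxisomal carrier of coenzyme A, FAD and NAD, was at 74.4, 44.4 and 72.2 FPKM in aged and at 31.6, 34.0 and 34.1 FPKM in NMN libraries (limma adjusted p = 0.177 with all libraries, 0.0217 without aged replicate 2). The NMN values were tightly grouped, and the young mean was 22.7 FPKM. Grhl2, a transcription factor of epithelial cells, was at 3.71, 3.21 and 6.14 FPKM in aged and at 0.605, 1.02 and 0.769 FPKM in NMN libraries (limma adjusted p = 0.0648 and 0.0343). Tfg, which organises the sites where cargo leaves the endoplasmic reticulum, was at 23.9, 15.8 and 30.3 FPKM against 8.30, 8.92 and 11.6 FPKM (limma adjusted p = 0.125 and 0.0342). Fnbp4, a formin-binding protein, had 101 to 144 FPKM in aged and 54.7 to 81.0 FPKM in NMN libraries (limma adjusted p = 0.121 and 0.0342). In all 4 the groups did not overlap even with aged replicate 2 included. These calls rest on 2 aged libraries, and with aged replicate 1 also left out limma called 0 genes, while 696 had an unadjusted p under 0.05.

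**Figure D3:**
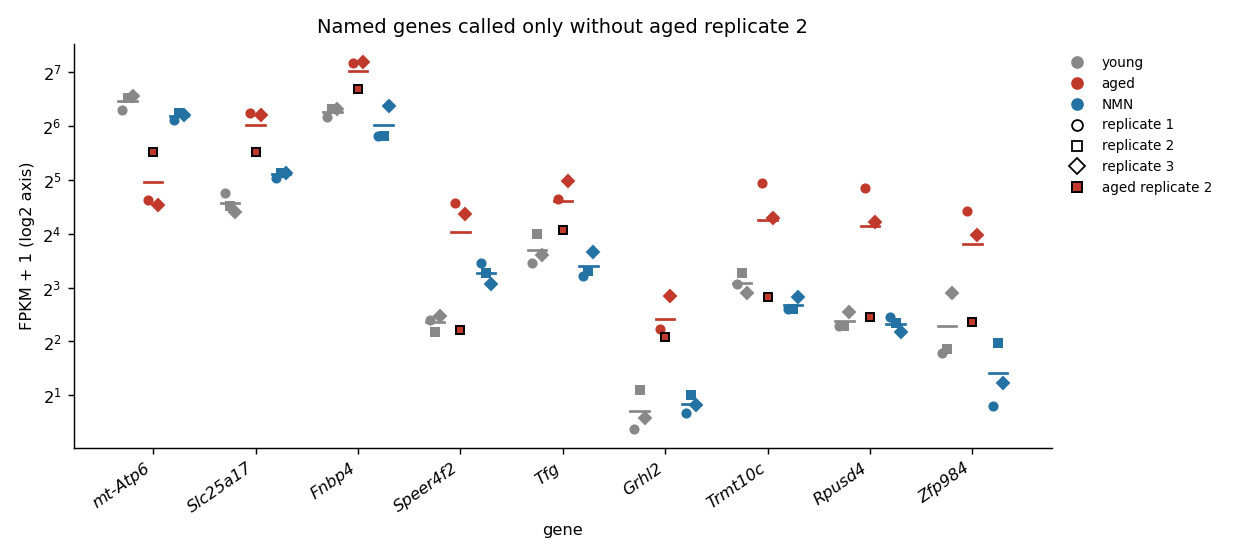
FPKM + 1 on a log2 axis in each of the 9 libraries for 9 of the named genes called only without aged replicate 2, with the same symbols as for the genes called with all libraries. In 8 of these genes aged replicate 2, with the black edge, is the aged library nearest to the NMN mean or lies among the NMN libraries, and in Speer4f2 it lies below them.

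Messenger RNAs encoded by mitochondrial DNA were the list of genes with the highest median change. They encode core subunits of the respiratory chain and ATP synthase and are transcribed inside the mitochondrion, and 12 of the 13 were in the table and 10 passed the filter. With all libraries 9 of the 10 had a higher mean log2 level with NMN. The median log2 change of the 10 was 0.40, against -0.00115 over all tested genes, and limma called none of them (0.218% of all tested genes were called). At an unadjusted p under 0.05, 1 was higher, against 5.38% of all tested genes. With all libraries the groups did not overlap in 1 of the 10, which was higher, against 9.09% of all tested genes. Without aged replicate 2 all 10 were higher, with a median of 0.80, and 1 was called (0.29% of all tested genes), while 8 had an unadjusted p under 0.05 against 7.37% of all tested genes in that direction. Groups did not overlap in 9 of the 10, against 21.4% of all genes tested without aged replicate 2 that were higher in this way. The 10 were measured in the same libraries and can move together, so these counts are not 10 separate observations. The median stayed between 0.13 and 0.63 under the other settings with aged replicate 2 and between 0.63 and 0.88 under those without it, with its lowest value in the first when aged replicate 3 was left out.

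The called member was mt-Atp6, which encodes the subunit of ATP synthase that forms the proton path. It was at 23.6, 44.4 and 22.0 FPKM in aged libraries, at 67.7, 74.8 and 72.4 FPKM with NMN and at 77.5, 90.2 and 93.1 FPKM in young ones. The groups were separate, with aged replicate 2 nearest to NMN, and the log2 change was 1.27 with all libraries (limma adjusted p = 0.0812) and 1.54 ± 0.16 (SE) without aged replicate 2 (limma adjusted p = 0.00653). mt-Co1, the catalytic subunit of cytochrome oxidase, was at 527, 1167 and 495 FPKM in aged and at 904, 1086 and 921 FPKM in NMN libraries. In it aged replicate 2 was higher than every NMN library, and the limma adjusted p was 0.542 with all libraries and 0.0857 without it. mt-Nd2, a complex I subunit, showed the same order, with 272, 654 and 272 FPKM against 608, 498 and 440 FPKM (limma adjusted p = 0.588 and 0.0897). mt-Nd1, another complex I subunit, was at 627, 802 and 509 FPKM against 688, 874 and 831 FPKM. mt-Cytb, the cytochrome of complex III, and mt-Nd5 moved least, with log2 changes of 0.05 and -0.01 with all libraries. Summed over the list, levels were 2848, 4813 and 2630 FPKM in aged, 3721, 4536 and 3997 FPKM in NMN and 5126, 5346 and 5977 FPKM in young libraries. Aged replicate 2 was thus the highest of the 6 aged and NMN libraries in this sum, and aged replicates 1 and 3 were below all NMN libraries. Mitochondrial mRNAs carry short poly(A) tails, and nuclear copies of mitochondrial DNA share their sequence, so assignment of reads may vary between these genes.

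**Figure D4:**
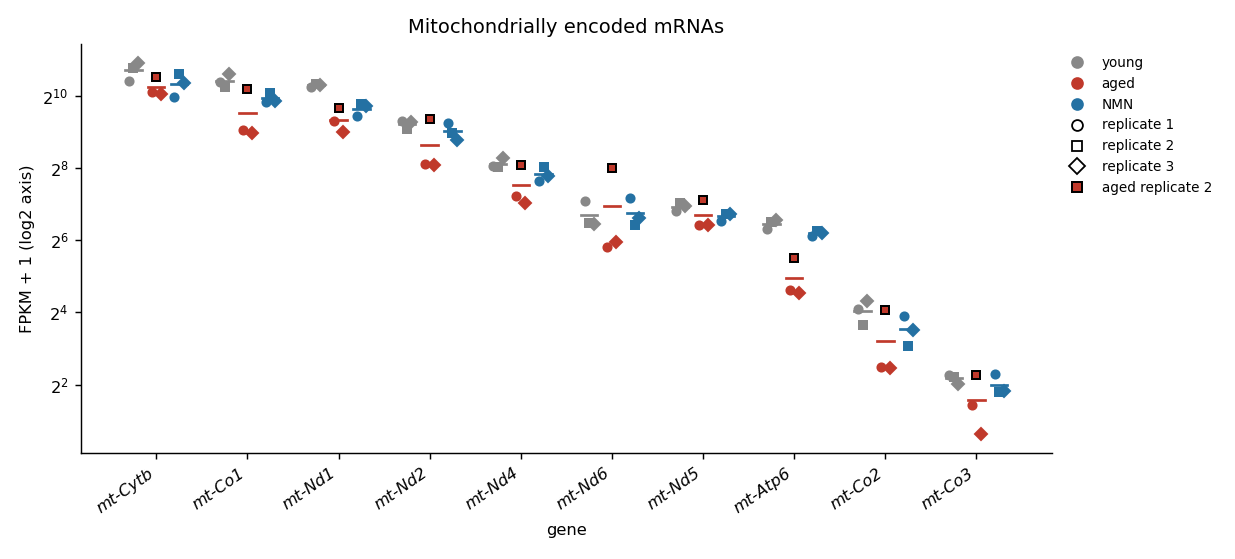
FPKM + 1 on a log2 axis in each of the 9 libraries for the 10 tested mitochondrially encoded mRNAs, ordered by aged mean, with points for libraries and lines for group means. In mt-Atp6 all NMN libraries lie above all aged ones, whereas in mt-Co1 and mt-Nd2 aged replicate 2 reaches or passes the NMN libraries.

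Nuclear-encoded subunits of the respiratory chain and ATP synthase did not show that pattern. Of 45 tested members, 13 had a higher and 32 a lower mean log2 level with NMN, none was called, 0 were higher and 6 lower at an unadjusted p under 0.05 (5.38% and 5.76% of all tested genes), and the median log2 change was -0.31. Without aged replicate 2 the median was -0.01, with 20 members higher and 21 lower. In that fit the median depended on single NMN libraries. It was -0.17 with NMN replicate 1 also left out and 0.11 with NMN replicate 2 also left out. Ndufb3, a complex I subunit, was at 6.66, 21.3 and 5.90 FPKM in aged and at 4.52, 2.88 and 3.41 FPKM in NMN libraries (limma adjusted p = 0.268), and it was highest in aged replicate 2. Ndufa8, another complex I subunit, was at 4.16, 6.28 and 4.11 FPKM against 2.76, 1.37 and 1.26 FPKM (limma adjusted p = 0.157), so its groups were separate with or without that library. Summed over the list, aged replicate 2 had 1234 FPKM, and the other 5 aged and NMN libraries had 595.5 to 779 FPKM.

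Cytosolic ribosomal proteins depended on aged replicate 2 in the same way. Among 33 tested members none was called, 7 had a higher and 26 a lower mean log2 level with NMN, and the median log2 change was -0.36. Without aged replicate 2 it was 0.08, with 17 higher and 13 lower of 30 tested. In that fit the sign of the median turned again under other settings, for example to -0.14 without NMN replicate 1. Rpl37 and Rps26, the members with the smallest p, were highest in aged replicate 2, at 12.0 and 5.01 FPKM, and lower in every NMN library than in any aged one (limma adjusted p = 0.258 and 0.35). Rps2, a protein of the small subunit, was the exception in aged replicate 2. It was at 54.7, 1.14 and 35.3 FPKM in aged and at 66.2, 71.8 and 65.9 FPKM in NMN libraries, with a limma adjusted p of 0.468. Its log2 change was 2.04 with aged replicate 2 and 0.55 without it. Genes of ribosomal proteins have many processed pseudogenes, so their assigned reads are uncertain. The mitochondrial ribosome had a median log2 change of -0.19 over 53 members with all libraries and -0.02 without aged replicate 2, and none of them was called. Its members with the smallest p differed in direction, with Mrpl27 at 2.19 to 5.74 FPKM in aged and 0.760 to 1.39 FPKM in NMN libraries and Mrpl9 at 5.91 to 9.28 FPKM against 10.9 to 16.6 FPKM (limma adjusted p = 0.182 and 0.291). For the proteasome, 32 members had medians of -0.04 and 0.11, with none called. There Psmd10, an assembly chaperone, was at 16.2 to 27.3 FPKM against 11.7 to 17.6 FPKM, and Psmd3, a subunit of the lid, at 34.2 to 44.1 FPKM against 44.9 to 57.4 FPKM (limma adjusted p = 0.364 and 0.472).

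**Figure D5:**
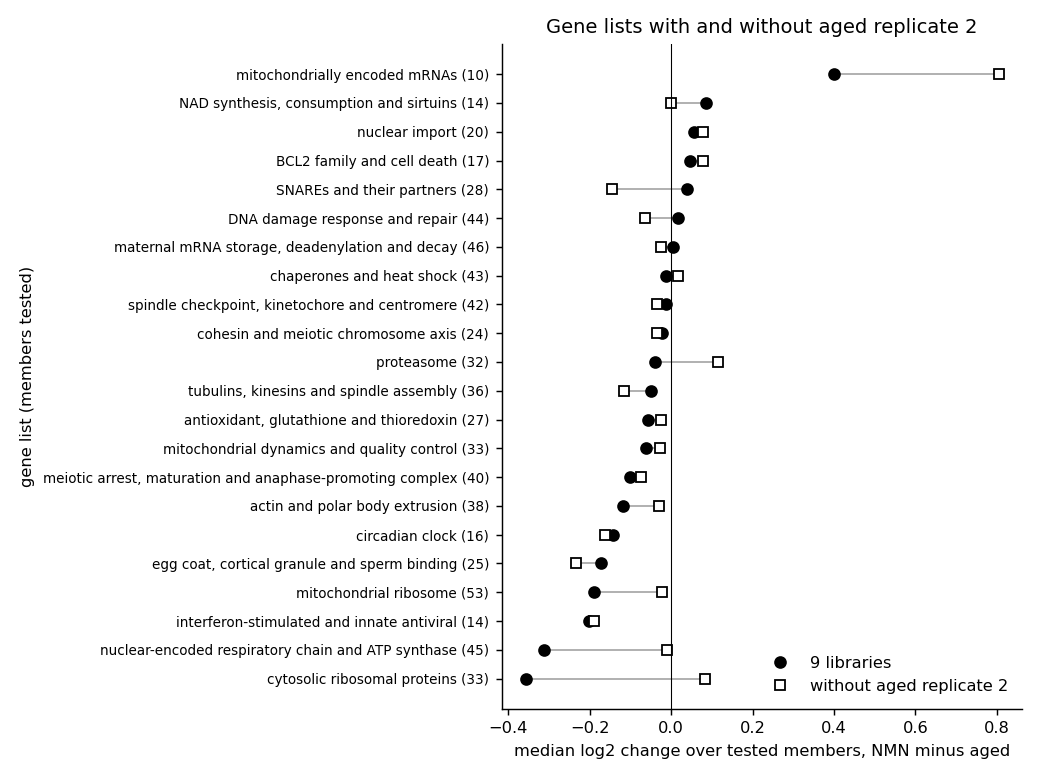
Median log2 change of NMN minus aged over the tested members of each of 22 gene lists, with the number of members tested in all 9 libraries in brackets; filled circles use all libraries and open squares leave out aged replicate 2. The mitochondrially encoded mRNAs lie farthest to the right, and the nuclear-encoded respiratory chain and the cytosolic ribosomal proteins move from about -0.3 to near 0.

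Genes that make, move and consume NAD gave no call. Of 14 tested members, 9 had a higher and 5 a lower mean log2 level with NMN, with a median log2 change of 0.09, and of 0.00 without aged replicate 2. At an unadjusted p under 0.05 there were 2 higher and 0 lower with all libraries, against 5.38% and 5.76% of all tested genes. Without aged replicate 2 there were none, against 7.37% and 7.81% of all genes tested there. Nmnat1, the nuclear enzyme that joins NMN to ATP to make NAD, was at 1.27, 0.850 and 0.514 FPKM in aged and at 1.39, 1.83 and 1.79 FPKM in NMN libraries. The groups were separate by a narrow margin, and the limma adjusted p was 0.424. Slc12a8, which has been described as an NMN transporter, was at 0.727, 0.194 and 0.648 FPKM in aged libraries and at 5.11, 0.229 and 5.4 FPKM with NMN. NMN replicates 1 and 3 were high and NMN replicate 2 was among the aged values (limma adjusted p = 0.43). Nampt, the enzyme that makes NMN from nicotinamide, was at 1.40, 0.924 and 0.772 FPKM against 0.471, 0.805 and 0.945 FPKM, and Sirt1, a nuclear NAD-dependent deacylase, was at 2.52, 6 and 3.47 FPKM against 4.99, 3.08 and 4.99 FPKM. Both overlapped between groups, with limma adjusted p of 0.728 and 0.92. Among antioxidant genes none of 27 was called or had an unadjusted p under 0.05 with all libraries. G6pdx, which supplies NADPH, was at 34.2, 16.9 and 31.1 FPKM in aged and at 28.2, 49.4 and 42.2 FPKM in NMN libraries (limma adjusted p = 0.573). Sod2, the mitochondrial superoxide dismutase, was at 13.5, 15.2 and 12.3 FPKM against 17.4, 15.7 and 17.7 FPKM (limma adjusted p = 0.575), and Prdx1, a peroxiredoxin, at 812, 900 and 698 FPKM against 668, 672 and 661 FPKM (limma adjusted p = 0.549).

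Actin genes, which position the spindle and cut off the polar body, gave no call among 38 tested, with 7 lower and 0 higher at an unadjusted p under 0.05, against 5.76% and 5.38% of all tested genes. Groups did not overlap in 5 of them, all lower, against 6.51% of all tested genes, and the median log2 change was -0.12. Without aged replicate 2 the picture was less one-sided. There 5 higher and 7 lower members did not overlap (21.4% and 14.3% of all genes tested there). At an unadjusted p under 0.05, 1 was higher and 6 lower (7.37% and 7.81% of all genes tested there), and the median was -0.03. Tpm4, a tropomyosin that stabilises actin filaments, was at 8.38, 8.64 and 9.48 FPKM in aged and at 2.62, 3.16 and 3.24 FPKM in NMN libraries. The spread within each group was small, and the log2 change was -1.32 ± 0.27 (SE; limma adjusted p = 0.111). Cdc42, the small GTPase that polarises the actin cortex, was at 202, 168 and 225 FPKM against 101, 109 and 127 FPKM, with a limma adjusted p of 0.127 and, without aged replicate 2, of 0.056. Cfl1, the actin-severing protein cofilin, was at 99.2, 303 and 165 FPKM against 104, 85.3 and 111 FPKM, where aged replicate 2 was the highest. Pls3, called lower above, also binds actin but was not in this list.

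Chromosome segregation genes gave no call in their 3 lists. In the spindle checkpoint and kinetochore list, 4 of 42 tested members were lower and 0 higher at an unadjusted p under 0.05 (5.76% and 5.38% of all tested genes), and without aged replicate 2 the numbers were 4 and 1, against 7.81% and 7.37% of all genes tested there. Mis18a, needed to load the centromeric histone, was at 6.27, 9.21 and 8.60 FPKM in aged and at 3.61, 3.16 and 3.17 FPKM in NMN libraries (limma adjusted p = 0.0735). Ndc80, which attaches kinetochores to microtubules, was at 91.8, 102 and 87.4 FPKM against 58.5, 55.5 and 54.4 FPKM (limma adjusted p = 0.0997). The groups were separate in both, and the young libraries were on the NMN side, at 2.11 to 3.32 FPKM for Mis18a and 61.6 to 68.5 FPKM for Ndc80. Bub1b, a checkpoint kinase-like protein, was at 381, 346 and 457 FPKM against 474, 379 and 442 FPKM and overlapped (limma adjusted p = 0.882). Of 24 tested genes for cohesin and the meiotic chromosome axis, 1 was higher and 3 lower at an unadjusted p under 0.05 (5.38% and 5.76% of all tested genes), with Sycp2, a protein of the chromosome axis, at 42.7 to 51.4 FPKM in aged and 26.7 to 36.0 FPKM in NMN libraries (limma adjusted p = 0.247). Esco2, which acetylates cohesin, was at 71.9 to 77.6 FPKM in aged and 48.0 to 60.7 FPKM in NMN libraries (limma adjusted p = 0.302). Tubulins, kinesins and spindle assembly factors had 1 higher and 2 lower among 36, by the same measure and against the same shares. Nusap1, which bundles spindle microtubules, was at 56.5, 76.3 and 58.0 FPKM in aged and at 45.6, 48.3 and 30.8 FPKM in NMN libraries, and Tubb5, a beta-tubulin, at 2.93 to 7.24 FPKM against 2.11 to 3.04 FPKM, which overlap. Their limma adjusted p were 0.311 and 0.412.

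For the egg coat and fertilisation, Vamp3 was the 1 called gene of 25 tested (0.218% of all tested genes were called), and its list takes it for cortical granule exocytosis. Zp2 and Zp3, glycoproteins of the zona pellucida, were highest in aged replicate 2. Zp2 was at 38.3, 197 and 83.5 FPKM in aged and at 38.3, 43.1 and 48.9 FPKM in NMN libraries, with a limma adjusted p of 0.44. Zp3 was at 166, 326 and 283 FPKM against 186, 158 and 213 FPKM (limma adjusted p = 0.485). Izumo1r, or Juno, the egg receptor for the sperm protein Izumo1, was at 30.1, 53.5 and 36.3 FPKM against 40.0, 31.5 and 34.0 FPKM and overlapped, and so did Astl, the protease that cleaves the zona after fertilisation, at 130 to 321 FPKM against 199.7 to 230.2 FPKM. Their limma adjusted p were 0.791 and 1. The oocyte growth factor genes Gdf9 and Bmp15 also overlapped with all libraries, with limma adjusted p of 0.968 and 0.704. Bmp15 was at 1000, 582 and 1322 FPKM in aged and at 517, 877 and 777 FPKM in NMN libraries. Without aged replicate 2 its groups did not overlap, and it was not called (limma adjusted p = 0.262). In that fit 14.3% of all tested genes were lower without overlap. Rab3a, a GTPase of secretory vesicles, was at 5.96 to 8.53 FPKM in aged and 3.87 to 5.46 FPKM in NMN libraries (limma adjusted p = 0.341). In the list of genes for meiotic arrest and maturation, none of 40 was called. Its members with the smallest p were Pkmyt1, an inhibitory kinase of CDK1, at 20.4 to 39.4 FPKM in aged and 39.2 to 61.2 FPKM in NMN libraries, and Mapk3, the kinase ERK1, at 83.8, 231 and 118 FPKM against 63.8, 74.8 and 75.5 FPKM. Pkmyt1 overlapped and Mapk3 did not, with limma adjusted p of 0.292 and 0.355.

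Membrane traffic, nuclear import, interferon and clock lists each held 1 gene called with all libraries, where 0.218% of all tested genes were called. Among 28 tested SNAREs and partners, Vamp3 was called higher with all libraries. Sec22c, a vesicle trafficking protein of the same list, was at 0.840, 1.01 and 1.06 FPKM in aged and at 2.23, 1.99 and 1.86 FPKM in NMN libraries (limma adjusted p = 0.199). Kpna2 was the called gene among 20 for nuclear import, whose other members included Xpo1, the main nuclear export receptor, at 2.32 to 3.20 FPKM in aged and 3.54 to 4.28 FPKM in NMN libraries (limma adjusted p = 0.48). Bst2 was the called gene among 14 interferon-stimulated genes tested. At an unadjusted p under 0.05 it was the 1 higher member, against 5.38% of all tested genes, and 3 others were lower, against 5.76%. Those were Oasl1, Oas1c and Isg20, which take part in antiviral RNA sensing or decay, and Oasl1 was at 2.92, 1.44 and 2.44 FPKM against 0.866, 1.13 and 1.14 FPKM (limma adjusted p = 0.385). Of 16 clock genes tested, Arntl2 was called. Arntl, its close relative BMAL1, was at 25.9, 16.3 and 27.0 FPKM in aged and at 14.8, 20.1 and 17.8 FPKM in NMN libraries, and Ciart, a repressor of the clock, at 19.0, 10.8 and 16.0 FPKM against 8.44, 5.82 and 9.55 FPKM. Arntl had a limma adjusted p of 0.598 and Ciart of 0.286, so neither was called.

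DNA repair genes gave no call among 44 tested, with 5 higher and 3 lower at an unadjusted p under 0.05 (5.38% and 5.76% of all tested genes). Groups did not overlap in 7 higher members, against 9.09% of all tested genes, and in 1 lower member, against 6.51%. Without aged replicate 2, 10 higher and 2 lower of 43 members did not overlap (21.4% and 14.3% of all genes tested there). At an unadjusted p under 0.05, 3 were then higher and 2 lower (7.37% and 7.81% of all genes tested there). The median log2 change was 0.02 with all libraries and -0.06 without aged replicate 2. Xrcc1, a scaffold of single-strand break repair, was at 6.85, 6.01 and 9.33 FPKM in aged and at 10.6, 12.4 and 13.2 FPKM in NMN libraries (limma adjusted p = 0.291). Rnf8, a ubiquitin ligase at double-strand breaks, was at 2.62, 2.71 and 3.04 FPKM against 5.48, 4.46 and 4.22 FPKM (limma adjusted p = 0.296). Xrcc5, or Ku80, was at 15.7, 24.9 and 12.5 FPKM against 13, 7.71 and 12.9 FPKM and overlapped. The lists for maternal mRNA storage and decay (46 tested), chaperones (43), mitochondrial dynamics (33) and cell death (17) gave no call either. Cnot11, a subunit of the main deadenylase complex, was at 26.3, 39.6 and 26.3 FPKM in aged and at 60.2, 48.2 and 42.8 FPKM in NMN libraries (limma adjusted p = 0.243). Hspb1, a small heat shock protein, was at 88.6, 119 and 44.9 FPKM against 37.5, 22.2 and 49.6 FPKM (limma adjusted p = 0.254), and Cct7, a subunit of the cytosolic chaperonin, at 8.20 to 8.48 FPKM against 11.5 to 12.3 FPKM (limma adjusted p = 0.334). Pabpc1l, the oocyte poly(A)-binding protein, was at 22.4, 18.4 and 40.3 FPKM in aged and at 13.3, 14.0 and 18.3 FPKM in NMN libraries, where the groups meet closely (limma adjusted p = 0.392). Timm50 and Tomm22, parts of the mitochondrial protein import machinery, were at 1.72 to 2.70 and 3.24 to 7.51 FPKM in aged and at 0.817 to 1.51 and 2.23 to 3.42 FPKM in NMN libraries (limma adjusted p = 0.332 and 0.43). Apaf1, the core of the apoptosome, was at 3.74 to 5.88 FPKM against 1.84 to 3.04 FPKM, and Bcl2l1, the survival protein BCL-XL, at 17.2 to 20.9 FPKM against 23.7 to 41.4 FPKM (limma adjusted p = 0.291 and 0.44).

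Several abundant genes were separate between the groups without being called. Brap, a ubiquitin ligase of the Ras pathway, was at 10.4, 9.95 and 9.16 FPKM in aged and at 31.6, 22.1 and 21.7 FPKM in NMN libraries. Its aged values were tight, and its log2 change was 1.22 ± 0.22 (SE; limma adjusted p = 0.0758). Tmem201, a protein of the inner nuclear membrane, was at 18.4, 11 and 16.9 FPKM against 32.2, 40.4 and 32.5 FPKM (limma adjusted p = 0.121). Cdc34b, a ubiquitin-conjugating enzyme, was at 63.4, 104 and 60.4 FPKM against 247, 116 and 180 FPKM, with NMN replicate 2 close to the highest aged library (limma adjusted p = 0.155). On the lower side, Pcp4l1 was at 9.88, 42.2 and 42.0 FPKM in aged and at 0.415, 5.70 and 4.99 FPKM in NMN libraries (limma adjusted p = 0.124). Calm2, 1 of the genes for calmodulin, the calcium sensor of egg activation, was at 14.5, 47.3 and 23.5 FPKM against 11.6, 7.99 and 8.29 FPKM (limma adjusted p = 0.137). Tcl1b5, an oocyte transcript of a family with near-identical copies, was at 291, 1106 and 386 FPKM against 237, 157 and 163 FPKM (limma adjusted p = 0.194). In Calm2 and Tcl1b5 aged replicate 2 was 2.01 times and 2.87 times the next highest aged library, and the log2 change of Tcl1b5 was -1.48 with it and -0.95 without it. Thegl, Trim15 and Elobl were also lower in every NMN than in any aged library, at 4.89 to 15.5, 11 to 26.3 and 210 to 872 FPKM in aged and at 2.12 to 4.04, 3.47 to 9.99 and 86.7 to 204 FPKM in NMN libraries (limma adjusted p = 0.137, 0.165 and 0.209). In Trav7-6 and Tceal8 the lowest value was NMN replicate 2, listed at 0 for Trav7-6 and at 5.62 FPKM for Tceal8, against 14.9 and 20.8 FPKM and 64.7 and 71.9 FPKM in the other NMN libraries (limma adjusted p = 0.286 and 0.472). On the higher side, Krtap4-6, a hair keratin-associated protein, was at 2.61 to 4.58 FPKM in aged and 7.11 to 18.7 FPKM in NMN libraries, and Prl8a2, a gene of the prolactin family, at 1.41 to 5.56 FPKM against 7.66 to 13.1 FPKM (limma adjusted p = 0.17 and 0.199).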

How the data were processed

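The authors deposited 1 table of 22526 genes in 9 libraries. Its name calls the values raw counts, but the deposited values are FPKM, fractional and summing to 300369 to 329359 in each column. Bowtie2 2.2.5, RSEM and mm9 are named in the submitters' processing notes, and the annotation and any filter are not given in the sources used here. Per the labels' protocols, cDNA was made by Smart-seq2 from oligo(dT) and sequenced after a DNBseq preparation. The labels name an MGISEQ-2000, whereas the design text names an Illumina instrument.

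Identifiers were matched to symbols for 22487 genes (99.8%) through GENCODE M21 and RefSeq. That annotation is on a later build, so no coordinates are given. Depth came from 2659 genes with a single transcript over 1500 nt. In these, 96.6 to 97.7% of the values below 20 reads lay within 0.02 of a whole read. The floors given for low values cover counting error only, whereas SD and SE measure the spread between libraries. The planned count model was replaced because the values were FPKM. Each library was scaled by a trimmed mean of ratios (outer 30% of ratios and 5% of levels left out). Genes reaching 1 FPKM in 3 or more libraries entered the test, and limma 3.58.1 (R 4.3.3) was fitted on log2(FPKM + 1) to group means of all 9 libraries, with a variance trend and robust moderation. The code was tested on simulated data. FPKM in the text are as deposited, and so are the values behind the counts of groups that did not overlap. With aged replicate 2 left out, unscaled values gave 4913 genes higher and 4040 lower with NMN, against 4357 and 4596 after scaling.

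Without aged replicate 2, the filter and the fit were repeated on 8 libraries. Alternatives were another pseudocount (0.1), other filters (none, or a minimum of 10 FPKM), other scaling, only the aged and NMN libraries, no variance trend, library quality weights, a length correction, a replicate block and leaving out each library. Genes were named by a rule: all called genes with a proper name, the largest non-overlapping changes where the higher group averaged 10 FPKM or more, the 2 members of each list with the smallest p, and a fixed set of oocyte genes. Further list members are named where a count or contrast turned on them, after their values were seen. For 1 gene called only without aged replicate 2, the result is not reported here. The members, the 22 lists and the rule were chosen with earlier results of these data known. Marker lists for other cell types were summed per library, and exact permutation tests of 3 libraries against 3 cannot give a p below 0.1.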

Additional observations from a re-analysis of the deposited data

How the results depend on the processing

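The 20 calls with all libraries became 13 with a pseudocount of 0.1, 9 without a low-value filter, 4 with a minimum of 10 FPKM, 7 with only the aged and NMN libraries, and 143 with library quality weights. Leaving out each library in turn gave 5 to 26 calls, with 5 when aged replicate 3 was left out, 8 for aged replicate 1 and 11 for NMN replicate 1. The 26 calls without aged replicate 2 became 17 with a pseudocount of 0.1, 8 with a minimum of 10 FPKM, 9 with only the aged and NMN libraries, 116 with quality weights and 35 without a low-value filter (5 higher and 30 lower, 11 of them among the 26), and a further left-out library gave 0 to 35, with 0 for aged replicate 1 and 8 for aged replicate 3. Where 1 aged library was left, it was assumed to vary like the other groups. Other scaling gave 18 and 20 calls in the first fit, and 33 and 28 in the second. Whether replicate numbers pair the libraries is not known. Deviations from the group means of same-numbered NMN and aged libraries correlated at -0.372, -0.357 and 0.203. The highest correlation, 0.522, was between NMN replicate 1 and aged replicate 2. Deviations within a small group depend on each other, and a library that stands apart shapes them all. These values therefore cannot show whether the libraries were paired. A replicate block gave 16 calls with all libraries and 47 without aged replicate 2. The causes were not tested.

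Over the named genes, 1401 alternative values kept direction and side of the threshold, 61 lost the call, 34 gained it and 15 changed sign, all in 5 genes with small changes. Most named genes were not called with all libraries and had no call to lose. All 61 losses therefore fell on the few named genes that were called, and the 1401 say little about the stability of those calls. Leaving out each library gave log2 changes of -0.319 to 0.0119 for Izumo1r, -0.0296 to 0.209 for Bub1b, -0.0813 to 0.354 for Sirt1, -0.174 to 0.194 for Gdf9 and -0.324 to 0.287 for Astl. Quality weights gave -0.0216 for Bub1b, -0.0882 for Gdf9 and -0.0984 for Astl. Astl was also at -0.0252 with a minimum of 10 FPKM, -0.00406 with median factors and -0.0101 with the length correction. A value near 0.09 FPKM rests on about 3 reads in 2 kb, so the ratios of Arntl2, Uba6, Pls3 and Rbm34 are less precise than those of abundant genes.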

Other observations

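Immediate early genes, which are induced quickly by stress or handling, summed to 88.5 to 125 FPKM in the aged and to 56.3 to 73.3 FPKM in the NMN libraries, without overlap, and to 57.5 to 72.2 FPKM in young ones. The two-sided exact permutation p was 0.1, the smallest that 3 libraries against 3 can give. Dusp1, a phosphatase of MAP kinases, made up most of the sum except in aged replicate 2 and was at 114, 34.0 and 96.4 FPKM in aged and at 44.4, 50.7 and 60.8 FPKM in NMN libraries, so its level in aged replicate 2 was below every NMN library. Ier3, another gene of the list, was at 34.9 FPKM in aged replicate 2, above Dusp1 there, and at 0 in the other aged libraries. Jun, Junb and Ier2 were also highest in aged replicate 2, at 1.85, 2.7 and 3.31 FPKM. Fos went the other way, with at most 0.418 FPKM in aged and at least 0.708 FPKM in NMN libraries. Egr1 overlapped, at 7.64 to 9.96 FPKM in aged and 9.36 to 16.1 FPKM in NMN libraries. The higher sums in aged libraries thus rested mainly on Dusp1 and, in aged replicate 2, on Ier3, not on the whole list. Transcripts known from the 2-cell stage, 11 of which were in the table, summed to 18.3, 52.9 and 31.4 FPKM in aged and to 7.20 to 28.2 FPKM in NMN libraries, with overlap (exact permutation p = 0.2). Summed markers of theca and stroma (5 in the table), oviduct epithelium (7), endothelium (4) and red blood cells (1) also overlapped between the aged and NMN libraries.

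Of the 20 called genes, 4 lie on chromosome 4 (Vamp3, Gm13103, Gm13089 and Gm21411), which holds 6.44% of the tested genes. The median transcript length of the 33 genes called in either fit was 960 nt, against 1291 nt over all tested genes. Both facts were noticed after the calls were known, and neither was tested.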
